A study of Homo sapiens with 4 samples.

Results

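The alpha and beta globin gene clusters encode the chains of haemoglobin. They were examined in a list of ATAC-seq peaks from breast cancer cells, in which the globin genes were taken to be silent. Members were all listed summits, the points of highest signal within a peak, that lay on hg19 chromosome 16 from 190000 to 240000 (the alpha cluster, with HBZ, HBM, HBA2 and HBA1) or on chromosome 11 from 5240000 to 5320000 (the beta cluster, with HBB, HBD, HBG1, HBG2 and HBE1). Of 371521 listed summits, 71 were members. All 71 lay in the alpha cluster, and the beta cluster held 0. The 200 kb on either side of each interval were counted in the same way.

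In ATAC-seq the transposase Tn5 inserts sequencing adapters wherever chromatin is open, and here it was applied to T47D-MTVL cells, a T47D breast cancer derivative with 1 integrated luciferase reporter under the MMTV promoter. Knock-down cells (multiH1sh, 2 samples) carried an shRNA against multiple linker histone H1 variants, and the control cells (RDsh, 2 samples) a random shRNA. The labels do not say whether samples numbered 1 and 2 were separate cultures. The series asked whether loss of linker histone H1, the protein that binds the nucleosome and its linker DNA, changes accessibility. A single peak list was analysed, which its track line calls 225sh_DifferentialRDsh. That 225sh is the multiH1 knock-down is an assumption, since the labels do not use this name. Which samples went into the list, and whether control reads entered it, is not given in the sources used here. Going by its name alone, the list may hold peaks of knock-down over control, and a place without a listed peak could then be open in both. Peak numbers ran through the list with 0 gaps. Whether peaks were selected against the control was not tested. The solved summits shared 1 background of 2.01 reads. A fold is thus the reads plus 1 over that background plus 1, and is not measured against the control signal at the same place. The list has no value per sample, so nothing below compares knock-down with control cells and no value has a replicate error. RNA was not measured in these libraries, so that the globin genes are silent was assumed and not checked.

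Adult haemoglobin joins alpha chains from chromosome 16 with beta chains from chromosome 11. In each cluster the genes stand broadly in the order in which they are used in development. HBZ encodes the embryonic zeta chain, HBA2 and HBA1 encode the alpha chain from a nearly identical gene pair, and HBM encodes the mu chain, a little-used alpha-like globin. HBE1 encodes the embryonic epsilon chain, HBG2 and HBG1 the foetal gamma chains, HBD the minor adult delta chain and HBB the adult beta chain. In erythroid cells the alpha genes are driven by enhancers that lie largely in introns of the neighbouring gene NPRL3, and the beta genes by the locus control region beyond HBE1. The clusters are textbook examples of opposite surroundings, a GC-rich, gene-dense chromosome end for alpha and AT-rich DNA among olfactory receptor genes for beta.

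Base composition was measured on promoters, the 250 bases before the gene start in RefSeq sequence of GRCh38.p14. The table held this stretch for 2 of the 9 globin genes, 1 from each cluster. They are shown because they carry the contrast in composition, with every CG dinucleotide in capitals, 5′ to 3′ on the gene's strand. HBM lies on the plus strand, at chr16:165728-165977, and HBD on the minus strand, at chr11:5234484-5234733, both in GRCh38.p14.
HBM: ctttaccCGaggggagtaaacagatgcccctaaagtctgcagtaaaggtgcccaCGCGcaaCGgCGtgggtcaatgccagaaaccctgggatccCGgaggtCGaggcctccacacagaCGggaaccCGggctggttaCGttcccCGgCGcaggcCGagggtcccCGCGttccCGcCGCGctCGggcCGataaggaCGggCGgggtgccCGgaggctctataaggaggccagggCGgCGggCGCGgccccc
HBD: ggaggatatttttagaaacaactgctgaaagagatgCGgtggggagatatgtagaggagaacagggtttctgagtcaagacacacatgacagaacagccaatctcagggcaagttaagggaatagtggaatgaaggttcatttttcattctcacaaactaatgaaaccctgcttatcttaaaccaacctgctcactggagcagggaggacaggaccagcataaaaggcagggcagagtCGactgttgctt

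The HBM promoter had a GC content of 69.2% and 27 CG dinucleotides, and the HBD promoter a GC content of 45.2% and 2 CG dinucleotides. Of 35114 promoters in the table, 77.5% had a lower GC content than HBM and 22.4% a lower one than HBD. The genes around them differed in the same direction. Promoters of 12 genes in the alpha neighbourhood (HBM and, among others, NPRL3, MPG, LUC7L and AXIN1) had a median GC content of 70.4% (54.4 to 83.6%) and a median of 27 CG dinucleotides (11 to 41). The 5 promoters available for the beta neighbourhood (HBD, OR52J3, OR52E2, OR52A5 and OR51V1) had a median GC content of 33.6% (30.8 to 45.2%) and 1 CG dinucleotide (0 to 2). The ranges of these promoters did not overlap, and the median over all promoters was 58.0%. The measured promoters cover 12 of 18 protein-coding genes on the alpha side and 5 of 18 on the beta side. Promoters of the other genes were not measured. These are promoters only, and the GC content of the intervals in which summits were counted was not measured. How far base composition moves with the listing of summits was not tested.

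**Figure D1:**
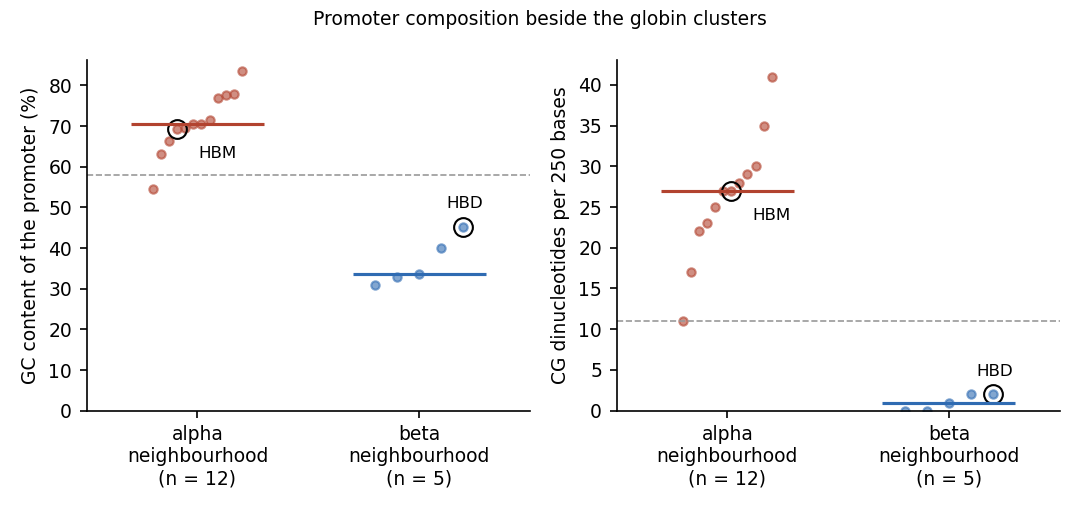
GC content in percent (left) and CG dinucleotides per 250 bases (right) of promoters in the alpha and the beta neighbourhood, 1 point per gene, with the neighbourhood median as a solid line, the median of all promoters dashed, and HBM and HBD ringed. The 12 alpha-side points lie between 54.4 and 83.6% GC and the 5 beta-side points between 30.8 and 45.2%.

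A motif known to be bound by erythroid GATA factors, GATAAG, was found in both promoters. In HBM it lay on the gene's strand 63 to 58 bases before the start, and in HBD on the other strand 79 to 74 bases before it. On either strand, 5.65% of all promoters held it within 250 bases. The letters CCAAT, a motif of NF-Y, lay 153 to 149 bases before the start of HBD on its strand (32.0% of all promoters). They lay farther from the start than GATAAG, and whether they act as a promoter CCAAT box was not determined. The HBM window did not hold them. CACCC, a motif of KLF-type factors, lay on the other strand of HBM 49 to 45 bases before the start (54.7% of all promoters) and was not found in the HBD window. None of these 3 motifs overlapped another. The matches describe letters and do not show binding.

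The clusters differed in whether the list covered them at all. The alpha cluster held 71 summits in 26 regions over 50 kb, a density of 1.42 summits per kb (exact 95% Poisson interval of the count 55.5 to 89.6). The beta cluster held 0 summits in 80 kb. A ratio of the densities was therefore not computed. The lowest pileup in the list was 10 reads over a background of 2.01 reads, and places with fewer reads are not listed, so 0 summits means no listed peak and does not show closed chromatin. With 10 kb bins, the 5 bins of the alpha cluster had 0, 11, 22, 24 and 14 summits in chromosome order. Thus 4 of 5 alpha bins and 0 of 8 beta bins held a summit. In chromosomes 1 to 22 and X, 21.2% of 10 kb bins did, in the first 5 Mb of chromosome 16 it was 87%, and on chromosome 11 29.7%. The alpha share lay near that of its own chromosome end. On chromosome 11 an 80 kb window without a summit was common, since 34.8% of such windows had none, as did 46.3% of 80 kb windows in all. No test of the difference between the clusters was possible.

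**Figure D2:**
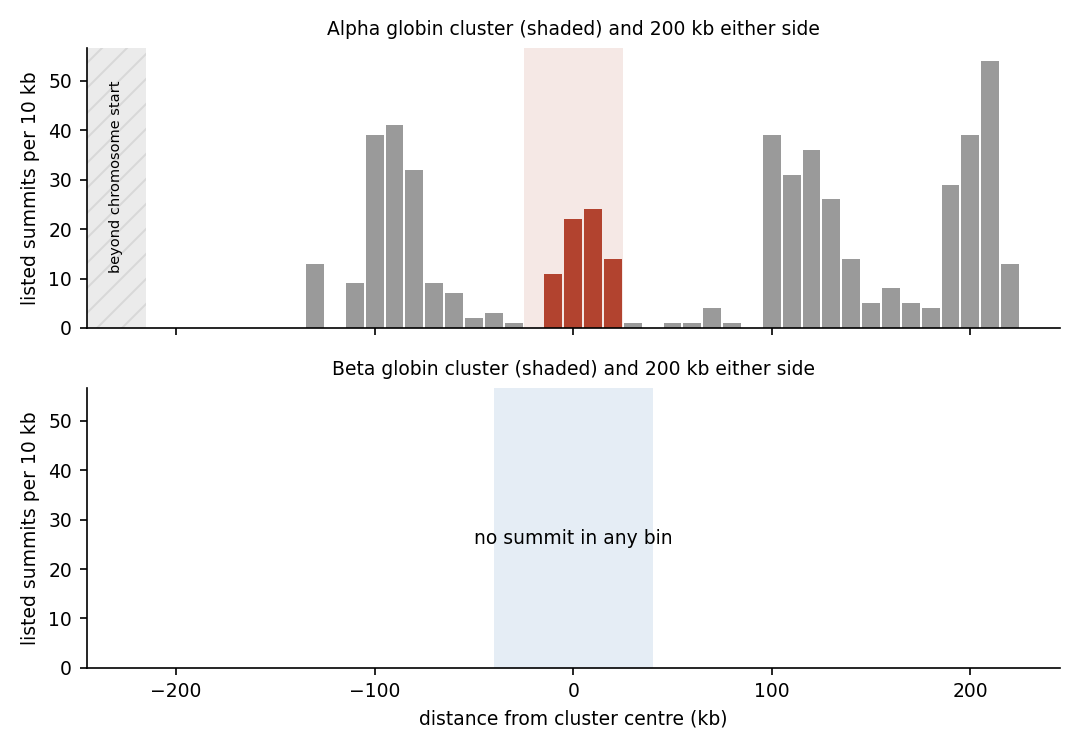
Listed summits per 10 kb bin (vertical axis) against distance from the cluster centre in kb, for the alpha cluster (top) and the beta cluster (bottom), each shaded, with 200 kb on either side in grey. The alpha bins reach 24 summits, with sparse bins next to the cluster and dense stretches further out on both sides. All 48 bins of the beta panel are at 0.

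The alpha cluster formed a group of regions between quieter DNA. Listed regions ran from 202772 to 239423, and the first 12771 bp of the interval were empty. Just before, from 160 to 200 kb, 6 summits were listed in 40 kb. Just after, from 240 to 310 kb, 8 summits were listed in 70 kb. These edges were chosen after the values were seen. Further out lay dense stretches, with 130 summits from 100 to 150 kb and 146 from 310 to 360 kb. By the order of the gene table, POLR3K, SNRNP25, RHBDF1, MPG and NPRL3 lie before HBZ, and LUC7L, FAM234A, RGS11, ARHGDIG, PDIA2 and AXIN1, among others, after HBQ1. Which of these genes a dense stretch covers was not determined here, because the table is of another build.

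Whether the alpha cluster was denser than its sides turned on the settings. The 190 kb before it, which reach the chromosome start, held 156 summits, or 0.821 per kb, and the 200 kb after it held 311, or 1.555 per kb. Cluster over sides, the density ratio was 1.19 (exact 95% interval 0.910 to 1.52). The first 83693 bases of the chromosome had no listed region. Measured from the first listed region at 83694, the side before the cluster had 1.47 summits per kb, and the ratio of the cluster to its sides was 0.931 (0.715 to 1.20). The ratio was also below 1 with sides of 500 kb (0.792), with the edges of the cluster moved outward by 10 kb (0.829) and at 20 reads or more (0.801). With the edges moved inward by 10 kb it was 1.62, with an interval of 1.21 to 2.14 that lies above 1 but covers counting error only. Among 100 windows of 50 kb in the first 5 Mb of chromosome 16, 43% had at least as many summits as the alpha cluster, and the median window had 55. In all of chromosomes 1 to 22 and X, 2.11% of 58999 such windows had as many, and the median window had 0.

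Most summits of the alpha cluster were weak, as were most of the whole list. The pileup, the read count at a summit as solved from fold and p, had a median of 16 (10 to 57). The fold over background had a median of 5.65 (3.66 to 19.3). Since the options of peak calling are not given, a pileup may differ from the number of reads that cover the summit. Fold values are the authors'. On the sides the median was 17 reads and the fold 5.98, and in the whole list 15 reads and a fold of 5.32. A pileup of 20 reads or more was reached by 15 of 71 alpha summits (21.1%, exact 95% interval 12.3 to 32.4%), by 146 of 467 on the sides (31.3%, 27.1 to 35.7%) and by 26.5% of the whole list. The intervals of the cluster and its sides overlap, and the alpha share lay near the background of the list. This share was 22.4% before the cluster (16.2 to 29.8%) and 35.7% after it (30.4 to 41.3%). Those 156 and 311 summits lay in 61 and 88 regions, and summits of a region depend on each other. The intervals cover counting error only, and whether the 2 sides differ was not tested.

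**Figure D3:**
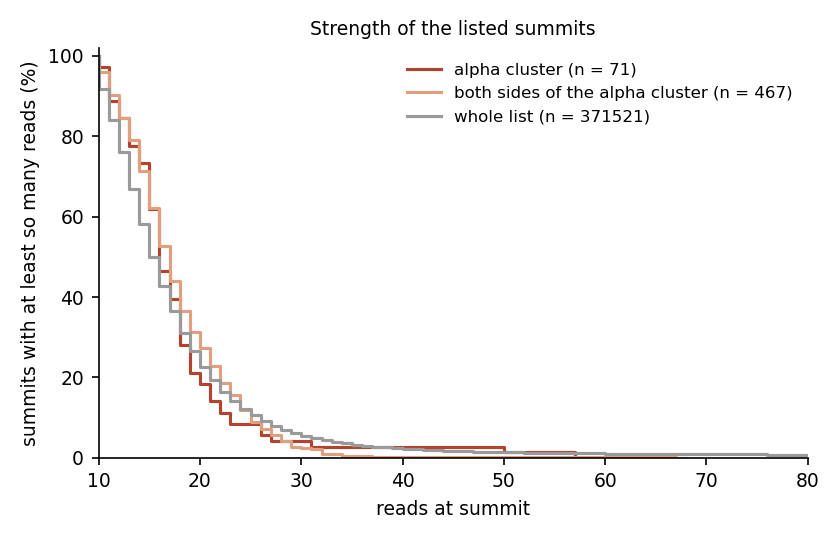
Percent of summits (vertical axis) with at least the number of reads on the horizontal axis, for the alpha cluster (71 summits), its 2 sides (467) and the whole list (371521), cut at 80 reads. The curves run close together, with 21.1% of alpha summits, 31.3% of those on the sides and 26.5% of the list at 20 reads or more.

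The first regions of the alpha cluster lay close together within 2043 bp. The region from 202772 to 203804 had 6 summits with pileups of 12, 16, 27, 18, 16 and 18 reads. The next, from 203918 to 204104, had 1 summit of 23 reads, and that from 204270 to 204814 had 3 summits of 18, 15 and 12 reads. Then followed the longest empty stretch between regions of the cluster, 4.59 kb. It ended at a region with 1 summit of 13 reads, from 209404 to 209657.

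The 2 strongest summits of the cluster came next, 3437 bp apart, with a summit of 22 reads at 212734 between them in a region of its own. The first, at 210059, had 50 reads (fold 16.96) and was the only summit of a region of 1012 bp, from 209841 to 210852. The second, at 213496, had 57 reads (fold 19.3) and lay in the widest region of the cluster, 1699 bp from 212996 to 214694, whose other 6 summits had 26, 16, 20, 21, 23 and 18 reads. Both stood above the next strongest summit of the cluster, which had 31 reads. On the sides 1 of 467 summits had 50 reads or more. It lay at 420344, 180.3 kb beyond the cluster, with 67 reads and a fold of 22.6. In the whole list 1.44% of summits had 50 reads or more. Before the cluster the strongest summit had 32 reads (fold 10.97, at 139592), and 4 of the 10 highest there lay in 1 region from 113396 to 115360.

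The middle of the cluster, from 215003 to 220455, held 7 regions with 16 summits of 10 to 21 reads. The highest of these lay in the region from 218914 to 219729, with pileups of 16, 18, 21 and 15 reads.

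A pair of regions of nearly the same width held the most summits. That from 222242 to 223678 (1437 bp) had 9 summits with pileups of 15, 18, 16, 13, 16, 17, 19, 22 and 18 reads. That from 226128 to 227566 (1439 bp) had 8, with 15, 19, 15, 26, 16, 21, 18 and 11 reads. Their starts lay 3886 bp apart and their median pileups were both 17 reads. The cluster is known to hold the nearly identical genes HBA2 and HBA1, and reads from such copies cannot always be placed in 1 of them. Whether these regions cover those genes was not determined here, and how the authors treated reads with several alignments is not given in the sources used here, so values of such copies are uncertain. The pair made up 17 of the 71 summits, or 23.9%. Between its members lay 3 short regions, from 223777 to 223894 with 1 summit of 19 reads, from 225396 to 225544 with 1 of 16 reads, and from 225716 to 225953 with 2 of 17 and 20 reads.

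Towards the end of the interval the regions became short and weak. The region from 230272 to 231222 had 5 summits of 17, 11, 31, 14 and 13 reads, and the next, from 231330 to 231731, had 3 of 15, 17 and 19 reads. The last 5 regions of the interval other than that from 237259 to 237522 had 1 summit each, of 10 or 11 reads, and that one had 2, of 15 and 11 reads.

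**Figure D4:**
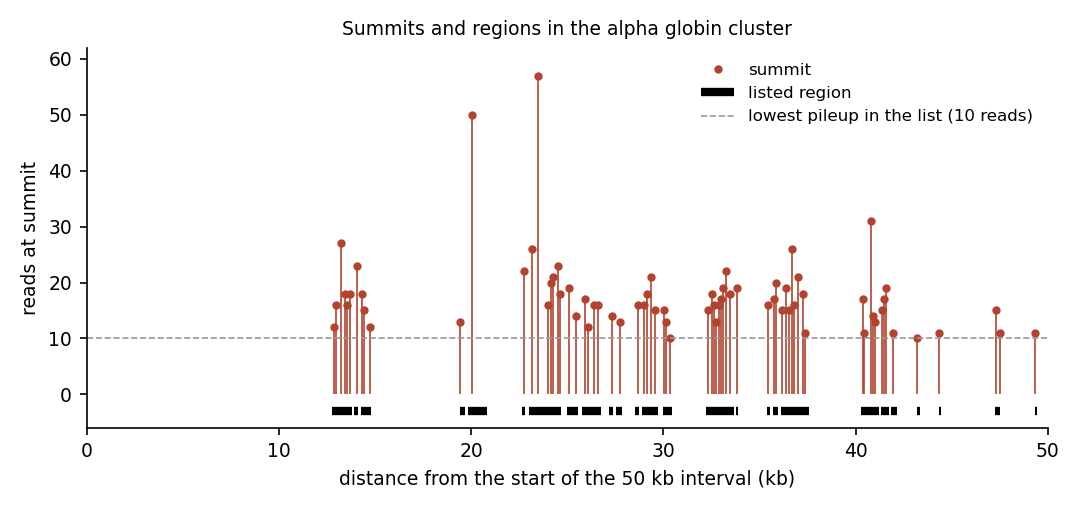
Reads at each of the 71 summits (vertical axis) against distance in kb from the start of the alpha interval, with the 26 listed regions as black bars and the lowest pileup of the list, 10 reads, as a dashed line. The first 12771 bp are empty, and 2 summits, of 50 and 57 reads, stand above all others, which have at most 31.

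Alpha regions were wider than those of the whole list, as were their neighbours. The 26 regions covered 14152 bp, or 28.3% of the interval, with a median width of 303.5 bp (104 to 1699 bp). The 149 regions on the sides had a median of 325 bp, and those of the whole list 208 bp. Regions of 1 kb or more made up 19.2% of regions in the cluster (5 of 26), 18.8% on the sides and 6.07% in the whole list. In 13 of 26 alpha regions (50%) there was 1 summit, against 52.3% of regions on the sides and 71.8% in the list. The median distance between neighbouring summits of a region was 157 bp in the cluster and 156 bp in the list.

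Around the beta cluster the 200 kb on either side held 0 summits each, and on the side before it the list was empty for far longer. The nearest listed region before the cluster, from 4745269 to 4745411, lay 495 kb from its edge and had 1 summit of 13 reads (fold 4.65). The nearest after it, from 5529988 to 5530112, lay 209.99 kb away, with 1 summit of 14 reads (fold 4.99). The stretch between them, from 4745412 to 5529987, measured 785 kb. On chromosome 11, 6 of 15523 stretches between neighbouring regions were longer. On chromosomes 1 to 22 and X, 366 of 197646 were longer, centromeres included, and stretches at least as long made up 19.9% of the spanned length. A 480 kb window without any summit, as long as the beta cluster with its 2 sides, was found in 15.9% of 6163 windows, and the median such window had 9 summits.

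By the gene table, in its own build, the beta globin genes stand in a run of odorant receptor genes. Which genes the counted 480 kb hold was not determined. Within 200 kb of the beta genes the table named 35 genes and pseudogenes, of which 18 were protein-coding. These were the 5 globin genes and 13 olfactory receptor genes of the OR51 and OR52 families, which are known to be used in the nose. HBBP1, a beta-like globin pseudogene, and BGLT3, a non-coding RNA gene, lie between HBD and HBG1. The alpha cluster likewise holds the pseudogenes HBZP1 and HBAP1 and, after HBA1, the theta globin gene HBQ1. In the alpha neighbourhood the table named 26 genes and pseudogenes, of which 18 were protein-coding and 0 were olfactory receptors. Many of these 18 are broadly used genes such as POLR3K, a subunit of RNA polymerase III, and MPG, a DNA repair glycosylase.

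The empty stretch was not a property of the whole end of chromosome 11. The first 3 Mb of this chromosome held 2891 summits, with 872, 1149 and 870 in its successive Mb. The count then dropped to 219 from 3 to 4 Mb, 12 from 4 to 5 Mb and 4 from 5 to 6 Mb, the last including the beta cluster, and was 70 from 6 to 7 Mb. The 16 summits from 4 to 6 Mb had a median of 13 reads. On chromosome 16 the first 5 successive Mb held 2042, 2392, 1669, 724 and 917 summits. The alpha cluster thus lay in a stretch where the list was dense for Mb on end, and the beta cluster beyond the edge of such a stretch. Copy number, mappability and repeats in both places were not analysed here.

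**Figure D5:**
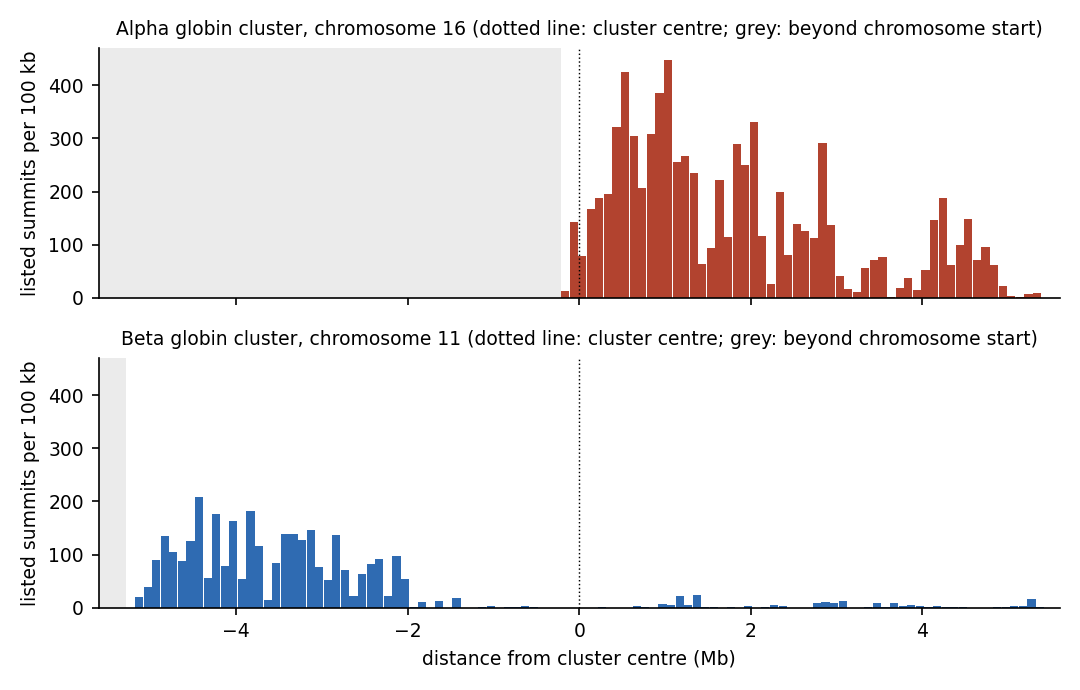
Listed summits per 100 kb window (vertical axis) against distance in Mb from the centre of the alpha cluster (top, chromosome 16) and of the beta cluster (bottom, chromosome 11), with the clusters at the dotted line and the space beyond the chromosome start in grey. The windows beside the alpha cluster are well filled, whereas those beside the beta cluster are at or near 0 until the first 4 Mb of chromosome 11 on one side and small groups of up to 25 summits on the other.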

How the data were processed

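The submitters' processing notes name Bowtie 1.1.2, MACS2 and hg19 for the ATAC-seq libraries of 2 multiH1 knock-down and 2 random-shRNA control samples. What options MACS2 ran with, how duplicate or multiply aligned reads were handled and whether replicates were pooled is not given in the sources used here. For all samples there was 1 list in narrowPeak format, per the file header, which gives each summit's fold, deposited by the authors as a ratio to background. A score and a −log10 p per summit were also deposited. Summits were assigned by region start plus summit offset and are printed counted from 1. The pileup was computed as fold times (background + 1) minus 1, after fold and p had been solved together for a background of 2.01 reads. In 99.6% of lines a solution was found, and 100% of these gave the same pileup. The solver was tested on simulated data. Bins and windows were tiled from position 1 of each chromosome from 1 to 22 and X, from its first to its last listed region, centromeres included. Intervals on counts are exact Poisson and on shares exact binomial (Clopper-Pearson) at 95%. They cover counting error only: reads multiplied by PCR carry no molecular identifier, and neighbouring summits depend on each other. Since no line carries a value per sample, no test was run.

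Promoter sequences, gene names and gene order came from RefSeq tables of GRCh38.p14, another build than the list. They were matched by symbol, and none of their coordinates was set against a summit. The named items are the 9 globin genes, the other globin genes and pseudogenes of the clusters, the neighbouring genes in the order of the table, each listed region in the clusters, and the 10 highest folds on each side. The members, intervals and lists were chosen with earlier results of these data known. Alternatives covered the counting unit, fold, pileup, cluster edges, flank width and bin width. Python 3.11.15, numpy 2.4.6, scipy 1.17.1, pandas 2.3.3 and matplotlib 3.10.9 were used.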

Additional observations from a re-analysis of the deposited data

How the results depend on the processing

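The alpha cluster held 71 summits, which became 15 with a minimum of 20 reads and 26 regions when lines of a region were counted once, both by construction, and 52 to 73 under the other alternatives. The beta cluster held 0 under all 5 alternatives run, also by construction. They drop lines from an empty interval, shrink it, or widen it by 10 kb into sides that also hold 0. Neither the density ratio of alpha over beta nor the median fold of beta summits therefore has a value. The ratio of the beta cluster over its sides has none either with sides of 100 or 200 kb, which hold no summit. With sides of 500 kb, which hold 2 summits, it is 0. The density ratio of the alpha cluster over its sides (1.19) turned round to 0.801 at 20 reads or more, 0.829 with edges moved outward by 10 kb, 0.792 with sides of 500 kb and 0.931 with the side before it counted from the first listed region, an alternative chosen after the data were seen. It was 1.62 (1.21 to 2.14) with edges moved inward by 10 kb, which takes from the interval an empty 10 kb at its start and 10 kb with 14 summits at its end. The share of 10 kb bins with a summit in the alpha cluster (80%) became 100% with edges moved inward, and stayed 80% in bins of 5 kb, where 14.8% of bins hold a summit on chromosomes 1 to 22 and X. The cause of the other shifts was not tested. No paired analysis was possible because no line of the list belongs to a single sample, which also kept replicates from being left out in turn. Depth is known only as a background of 2.01 reads, and places under 10 reads are not listed.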
